A study of Rattus norvegicus with 15 samples.

Results

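The interferon-stimulated genes Isg15, Mx1, Mx2, Ifit2, Ifit3, Irf1, Irf7, Stat2 and Usp18 were followed in epididymal fat, the visceral depot beside the testis, of diet-induced obese and lean rats. They were taken as the probe sets whose platform annotation names a single gene that is on this list, which gave 12 probe sets for 9 of the 14217 genes named on the array. Their Entrez gene IDs are 298693 (Isg15), 24575 (Mx1), 286918 (Mx2), 294091 (Ifit2), 309526 (Ifit3), 24508 (Irf1), 293624 (Irf7), 288774 (Stat2) and 312688 (Usp18). Each of 15 male Long-Evans rats gave 1 Affymetrix RAE230_2 array. The obese group held 7 rats fed a diet high in fat and sucrose (TD95217) from weaning, and the lean group held 8 rats fed chow (Purina 5008) over the same period. All rats came from 1 private colony, had free access to food and were 26 weeks old when the fat was taken; an oral glucose test had been given at 21 weeks. Obesity and diet differed between the groups together and cannot be told apart. Values are MAS5 signals, the brightness of a probe set on a linear scale.

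Interferons are cytokines, and those of type I are released when a cell senses foreign or misplaced nucleic acid. Type I interferons bind the receptor Ifnar1/Ifnar2, whose kinases Jak1 and Tyk2 phosphorylate Stat2, which joins Irf9 in a complex that binds the interferon-stimulated response element of target promoters. Type II interferon acts through the gamma-activated site. In fat, cells of the stroma, macrophages among them, and fat cells themselves can respond to interferon. Bulk tissue cannot tell fewer cells of a type from less RNA per cell.

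The promoters below show where letters of the interferon-stimulated response element and the gamma-activated site occur. RefSeq promoter sequences (assembly GRCr8, 250 bases before to 50 after the start) were matched by symbol for 5 of the 9 genes. Letters were searched on both strands, GAAA, then any 2 letters, then GAAA for the interferon-stimulated response element and TTCNNNGAA, which reads the same on both strands, for the gamma-activated site; matches are in capitals and did not overlap. Each sequence is given 5′ to 3′ on the strand of its gene.
Irf7 (chr1:205799974-205800273, minus strand): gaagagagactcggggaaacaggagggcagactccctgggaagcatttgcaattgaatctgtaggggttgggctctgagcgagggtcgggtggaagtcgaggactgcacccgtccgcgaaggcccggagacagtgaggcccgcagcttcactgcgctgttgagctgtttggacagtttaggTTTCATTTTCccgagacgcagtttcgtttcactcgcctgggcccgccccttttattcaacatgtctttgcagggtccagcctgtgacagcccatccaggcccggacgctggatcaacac
Ifit3 (chr1:241527076-241527375, plus strand): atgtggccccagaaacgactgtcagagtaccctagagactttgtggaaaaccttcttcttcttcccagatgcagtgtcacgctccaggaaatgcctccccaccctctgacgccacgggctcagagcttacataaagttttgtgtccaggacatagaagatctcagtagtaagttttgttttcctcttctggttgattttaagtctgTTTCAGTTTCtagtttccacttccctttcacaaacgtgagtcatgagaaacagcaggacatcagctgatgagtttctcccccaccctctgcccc
Irf1 (chr10:38417685-38417984, plus strand): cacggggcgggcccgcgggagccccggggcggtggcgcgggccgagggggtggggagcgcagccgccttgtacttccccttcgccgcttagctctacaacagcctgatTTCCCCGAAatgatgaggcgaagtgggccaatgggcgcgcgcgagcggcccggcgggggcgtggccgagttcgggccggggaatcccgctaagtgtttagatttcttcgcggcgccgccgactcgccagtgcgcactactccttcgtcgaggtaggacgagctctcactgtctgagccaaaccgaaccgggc
The response element letters were in the Irf7 promoter from -69 to -60 and in the Ifit3 promoter from -44 to -35, counted from the first transcribed base as 0, in both on the strand opposite to the gene. Irf1 held the gamma-activated site letters from -142 to -134. Stat2 and Mx1 held neither in this window. The response element letters were in 1312 of 33469 promoters of the same length (3.92%) and in 40 of 87 promoters of the other interferon pathway genes listed for this work (46%). The gamma-activated site letters were in 2970 of all promoters (8.87%) and in 21 of the 87 (24.1%). A match is a description of these letters and not a measured binding site.

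The arrays were scaled alike, with trimmed means between 1500.3 and 1500.4. All 8 listed fat cell markers lay above the filter on low signals and 0 of 3 epididymal epithelium markers on the array did. The arrays of obese rat 1 (C1) and lean rat 7 (A7), labelled as different groups, stood apart from the rest by their likeness: their log2 values had a Pearson r of 0.986, against 0.898 to 0.960 over the 104 other pairs. A wrong label on either array cannot be told from the files, so values of obese rat 1 and lean rat 7 stand under the labels they carry. Each comparison is therefore given with all 15 arrays and with 13, without this pair, which leaves 6 obese and 7 lean rats. Over the 9 genes the pair's median absolute log2 difference was 0.20, and 23 other pairs were closer to each other in these genes. The Gapdh log2 ratio of 3 prime to 5 prime signal, which grows as RNA degrades, was 0.77 ± 0.28 in obese rats (SD, n = 7) and 1.05 ± 0.26 in lean rats (SD, n = 8; exact two-sided permutation p = 0.0746), and over 13 arrays 0.72 ± 0.28 and 1.05 ± 0.28 (SD, n = 6 and 7; exact two-sided permutation p = 0.0589).

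None of the 9 genes passed the test between obese and lean rats, and their measured differences were small and mostly towards lower signal in obese fat. By its brightest probe set, each of 8 genes had a lower mean log2 signal in obese rats, and Stat2 a slightly higher one, with 15 arrays and with 13; when each array was centred on its median 6 and 8 genes were lower. The log2 differences, obese minus lean, had a median of -0.24 with 15 arrays and -0.30 with 13, beside -0.04 over all 18625 probe sets tested in both. Without lean rat 1 the median of the 9 genes was -0.09 and -0.14, and with median centring it was -0.14 and -0.18, where that of all probe sets was 0.06 and 0.07. A negative sign was common on these arrays, carried by 57.5% of all probe sets with 15 arrays and 57.8% with 13. With limma (Benjamini-Hochberg adjustment over all probe sets, threshold 0.05), 0 of the 12 probe sets passed with 15 arrays, where 0% of all probe sets did, and 0 with 13 arrays, where 1.01% did. The lowest adjusted p among the 12 was 0.211 with 15 arrays and 0.173 with 13, for the dimmer Stat2 probe set in both. At an unadjusted p under 0.05, 4 of the 12 probe sets (those of Isg15 and Ifit2 and the dimmer of Stat2) were lower in obese rats in both sets of arrays, beside 8.82% of all probe sets that were lower at that level with 15 arrays and 10.2% with 13, and 15.6% and 17.8% in either direction. The groups overlapped for each of the 12 probe sets in both sets of arrays.

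**Figure D1:**
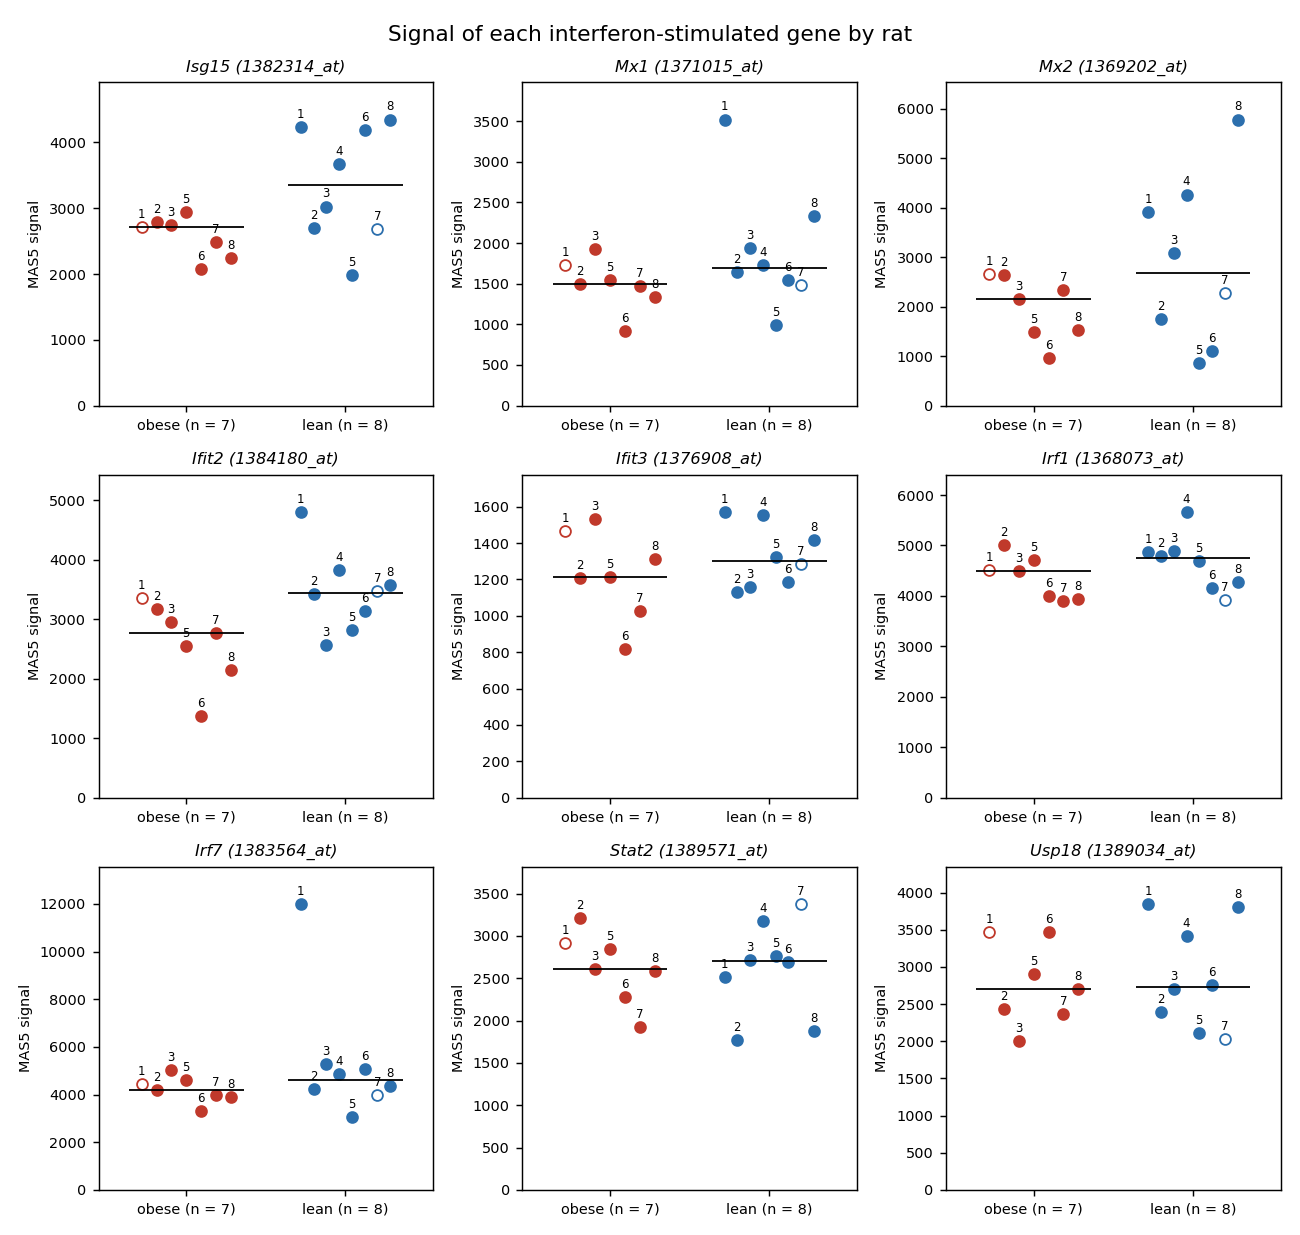
MAS5 signal (linear axis from 0) of the brightest probe set of each gene in each rat, obese left and lean right. Points carry the rat's number, open points are obese rat 1 and lean rat 7, and bars are group medians. The groups overlap in all 9 panels, and lean rat 1 stands alone at 12002.5 for Irf7.

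Among the effectors, Isg15, a ubiquitin-like protein that is joined to other proteins and is also secreted, lay low in obese rats with a wide lean group. Its signal ran from 2070.6 in obese rat 6 through a median of 2720 to 2947.2 in obese rat 5, and from 1979.6 in lean rat 5 through a median of 3348 to 4349.1 in lean rat 8. All 7 obese rats lay below the lean median, 5 lean rats lay above every obese rat, and lean rat 5 lay below all of them. The log2 difference was -0.34 ± 0.15 (SE; 95% interval -0.66 to -0.01; limma adjusted p = 0.311) with 15 arrays and -0.39 ± 0.17 (SE; limma adjusted p = 0.252) with 13.

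Ifit2 and Ifit3 encode tetratricopeptide repeat proteins that act against viral RNA, and the genes are next to each other on chromosome 1 with no other coding gene between them. The brighter Ifit2 probe set had signals from 1376.6 in obese rat 6 through a median of 2773 to 3357.6 in obese rat 1, and from 2570.2 in lean rat 3 through a median of 3447 to 4805.2 in lean rat 1. Again all 7 obese rats were below the lean median, and 3 of them were below every lean rat. Its log2 difference was -0.41 ± 0.17 (SE; 95% interval -0.77 to -0.06; limma adjusted p = 0.253) with 15 arrays and -0.48 ± 0.18 (SE; limma adjusted p = 0.196) with 13. The dimmer Ifit2 probe set had the same sign, with log2 differences of -0.23 and -0.26 (limma adjusted p = 0.307 and 0.23). It was nearly flat in obese rats, from 1546.6 through a median of 1636 to 1872.9, and reached from 1549.8 through 1934 to 2554.9 in lean rats, so the low value of obese rat 6 in the brighter probe set was not seen in this one, where that rat had 1662.0. Without obese rat 6 the brighter probe set had -0.27 and -0.32. Ifit3 differed less. It had 815.3 in obese rat 6, a median of 1214 and a highest value of 1529.9 in obese rats, and 1133.4, 1304 and 1572.8 in lean rats, a log2 difference of -0.13 ± 0.12 with 15 arrays and -0.18 ± 0.14 with 13 (SE; limma adjusted p = 0.655 and 0.523), and of -0.04 and -0.08 without obese rat 6.

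Mx1 and Mx2 encode dynamin-like GTPases that block viruses inside the cell, and lie on chromosome 11 with 1 coding gene, Fam3b, between them. Mx1 had signals from 915.2 in obese rat 6 through a median of 1496 to 1922.2 in obese rat 3, and from 995.1 in lean rat 5 through a median of 1690 to 3521.6 in lean rat 1. The groups overlapped, with 3 lean rats above every obese rat and obese rat 6 below every lean rat. The log2 difference was -0.28 ± 0.20 (SE; limma adjusted p = 0.519) with 15 arrays and -0.36 ± 0.23 (SE; limma adjusted p = 0.428) with 13. Without lean rat 1 it was -0.15 and -0.21. Mx2 varied most between rats of the same group. Its brighter probe set had 959.7 to 2667.1 in obese rats, with a median of 2149, and 855.6 in lean rat 5 to 5779.3 in lean rat 8, with a median of 2672. All 7 obese rats were below the lean median here too, yet the lowest value of all was that of a lean rat, and the 95% interval of the log2 difference of -0.37 reached from -1.10 to 0.37 (limma adjusted p = 0.649). With 13 arrays it was -0.46 ± 0.39 (SE; limma adjusted p = 0.572), and without lean rat 8 it was -0.19 with 14 arrays and -0.26 with 12. The dimmer Mx2 probe set had log2 differences of -0.07 ± 0.24 and -0.05 ± 0.27 (SE; limma adjusted p = 0.915 and 0.946), which became positive when the arrays were centred on their medians (0.03 and 0.07). It ranked the rats differently: lean rat 4, at 4263.6 among the highest in the brighter probe set, was the lowest of all at 407.5 in the dimmer.

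Among the regulators, Irf7, the transcription factor that amplifies the type I interferon response and whose promoter carries the response element letters shown above, turned on a single lean rat. Its signal ran from 3304.0 in obese rat 6 through a median of 4187 to 5039.0 in obese rat 3. In lean rats it ran from 3062.1 in lean rat 5 through a median of 4614 to 12002.5 in lean rat 1, with the next lean rat at 5284.0. Apart from lean rat 1 the groups covered nearly the same range. The log2 difference was -0.24 ± 0.21 with 15 arrays and -0.30 ± 0.23 with 13 (SE; limma adjusted p = 0.6 and 0.529). Without lean rat 1 it was -0.06 with 14 arrays and -0.09 with the 12 that remain when the near-identical pair is also left out.

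Irf1, the factor whose promoter holds the gamma-activated site letters and that responds to type II interferon, had the narrowest spread of the 4 regulators. It had 3891.2 in obese rat 7, a median of 4501 and 5009.7 in obese rat 2, against 3915.0 in lean rat 7, a median of 4744 and 5670.3 in lean rat 4. Its log2 difference was -0.09 ± 0.09 with 15 arrays and -0.13 ± 0.10 with 13 (SE; limma adjusted p = 0.68 and 0.522) and its 95% interval with 15 arrays was -0.29 to 0.11. Median centring gave 0.01 with 15 arrays.

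Stat2, the partner of Irf9 in the type I response, gave different answers by its probe sets. The brighter had 1921.1 to 3213.6 in obese rats, with a median of 2607, and 1764.3 to 3378.0 in lean rats, with a median of 2705, and a log2 difference of 0.02 ± 0.14 with 15 arrays and 0.05 ± 0.15 with 13 (SE; limma adjusted p = 0.959 and 0.894). In the dimmer the obese values of 1328.9 to 2390.2 had a median of 1673 and the lean values of 1491.8 to 3399.7 a median of 2430. There all 7 obese rats were below the lean median and 5 lean rats above every obese rat, and the log2 difference was -0.42 ± 0.16 with 15 arrays and -0.47 ± 0.17 with 13 (SE; limma adjusted p = 0.211 and 0.173). Which probe set follows the Stat2 transcript better was not tested, and the mean of both gave -0.20 and -0.21. Usp18, the protease that removes Isg15 from proteins and damps the type I receptor, had 1999.0 in obese rat 3, a median of 2698 and 3475.3 in obese rat 1, against 2035.4 in lean rat 7, a median of 2732 and 3847.8 in lean rat 1. Its log2 difference was -0.05 ± 0.16 with 15 arrays and -0.17 ± 0.16 with 13 (SE; limma adjusted p = 0.911 and 0.617), and median centring turned the 15-array value to 0.06. In this gene the near-identical pair lay far apart, 3475.3 in obese rat 1 and 2035.4 in lean rat 7, the widest gap of that pair among the 9 genes (0.75 on the log2 scale).

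**Figure D2:**
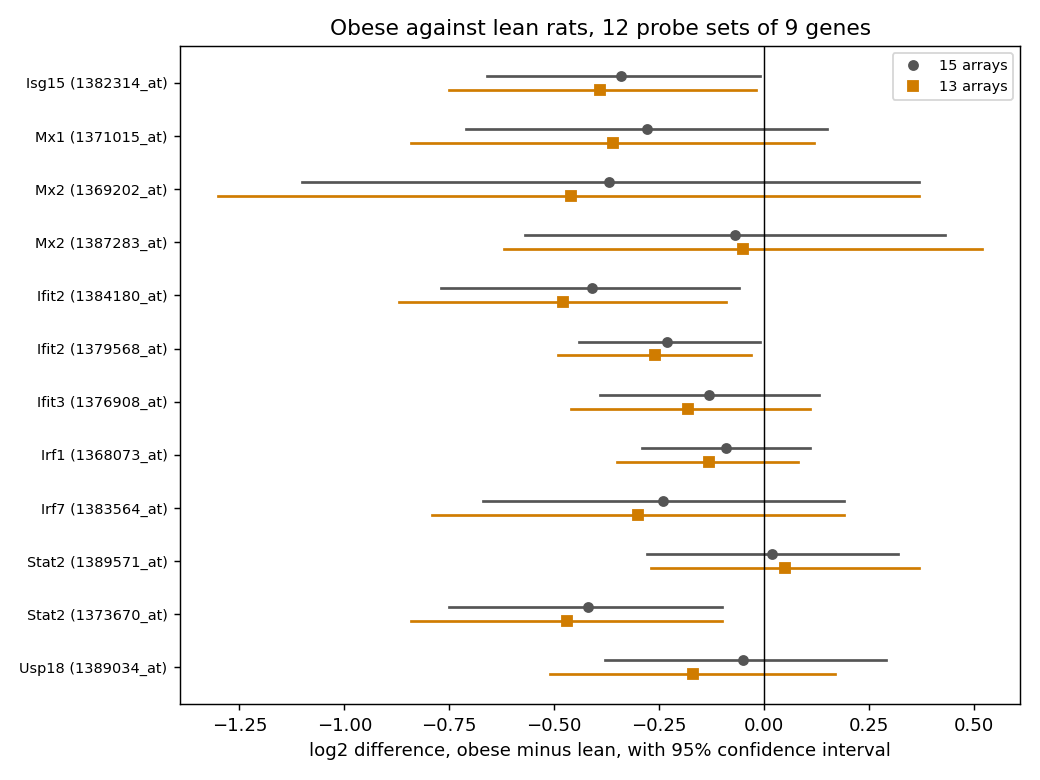
Log2 difference, obese minus lean, with its 95% interval for each of the 12 probe sets, with 15 arrays (circles) and 13 (squares, without obese rat 1 and lean rat 7). Of the 12 estimates 11 lie below 0 in both sets, and none passed the adjusted threshold.

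Rats of the same diet differed widely in these genes. Averaged over the 9 genes as the deviation from each gene's mean over 15 arrays (log2 scale), rats ranged from -0.50 in obese rat 6 to 0.13 in obese rat 1, and from -0.36 in lean rat 5 to 0.60 in lean rat 1. Lean rat 1 had the highest signal of all 15 rats for 5 of the 9 genes and lean rats 4 and 8 were next, with means of 0.34 and 0.31. Obese rat 6 and lean rat 5 each had the lowest signal for 3 genes. How often each rat was highest or lowest over all probe sets is not given here. The mean was -0.11 ± 0.21 in obese rats (SD, n = 7) and 0.10 ± 0.30 in lean rats (SD, n = 8), and -0.15 ± 0.20 and 0.12 ± 0.32 over 13 arrays (SD, n = 6 and 7). The SD of log2 values was wider in lean than in obese rats for 10 of the 12 probe sets with 15 arrays and for 9 with 13, beside 50.5% and 50.9% of all probe sets. For Irf7 it was 0.19 in obese and 0.57 in lean rats, for the brighter Mx2 probe set 0.52 and 0.93, for Isg15 0.18 and 0.40, and for the dimmer Ifit2 probe set 0.09 and 0.23. With 13 arrays and without lean rat 1 it was still wider in lean rats for 9 of 12, beside 50% of all. The brighter Ifit2 probe set and Ifit3 went the other way, at 0.42 and 0.29 in obese rats against 0.27 and 0.17 in lean rats, with obese rat 6 as their lowest value.

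**Figure D3:**
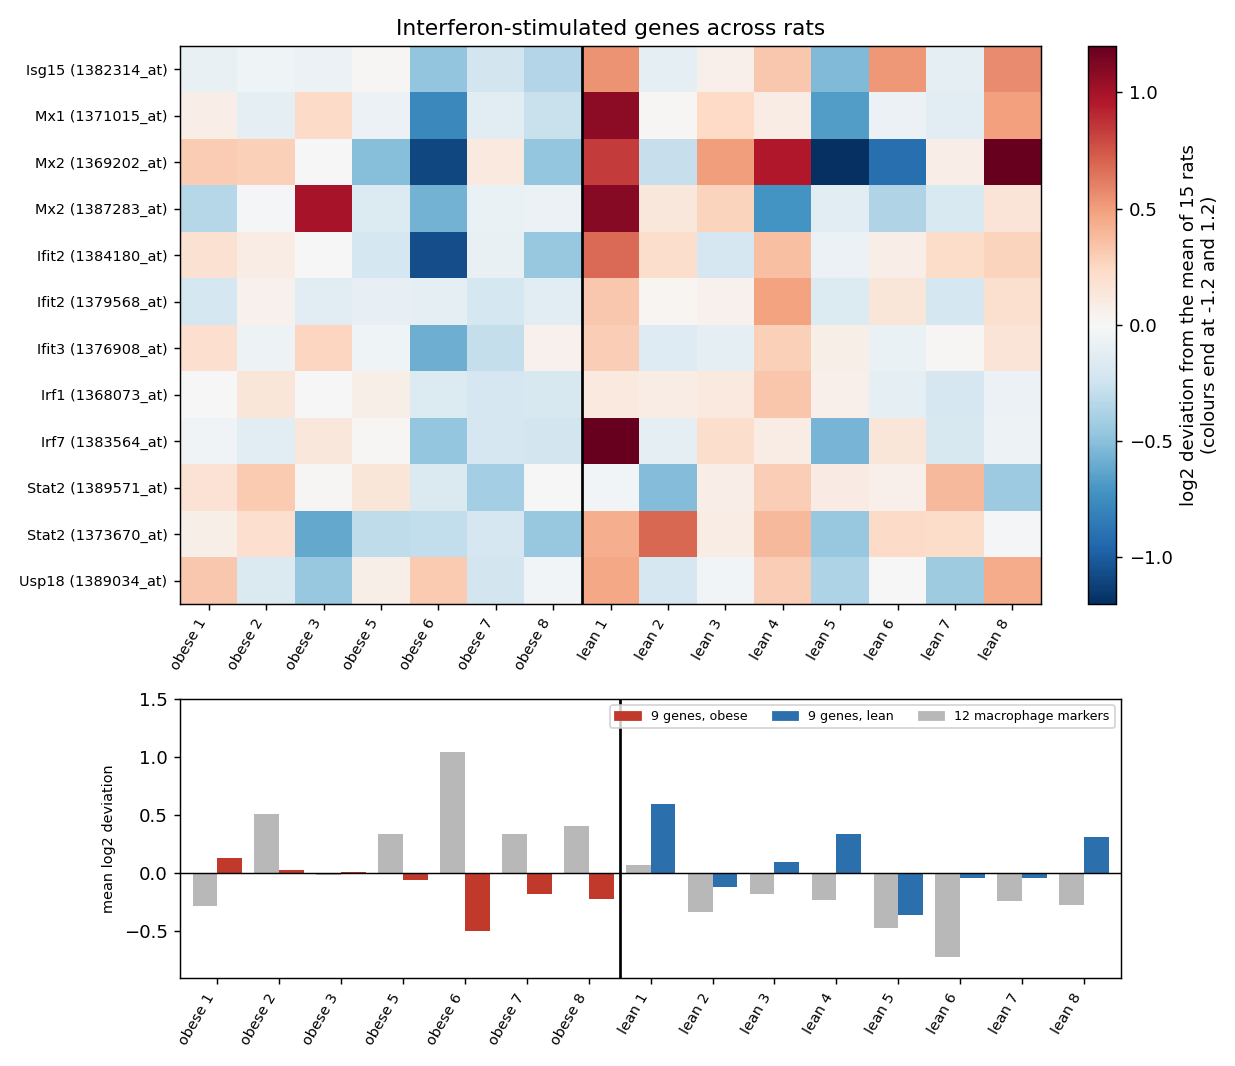
Top, log2 deviation of each probe set from its mean over 15 rats, obese rats left of the line and lean rats right of it. Bottom, the mean deviation of the 9 genes (coloured) beside that of 12 macrophage markers (grey); obese rat 6 has the lowest mean of the 9 genes (-0.50) and the highest of the macrophage markers (1.04).

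Marker lists of other cells moved with some of these rats. All 12 macrophage markers lay above the filter and had higher means in obese rats, with a median log2 difference of 0.69 with 15 arrays and 0.82 with 13, where 6 of the 12 passed. Their mean deviation ran from -0.28 in obese rat 1 to 1.04 in obese rat 6, against -0.72 to 0.07 in lean rats, highest in lean rat 1. The rat with the most macrophage marker signal was thus the rat with the lowest mean of the 9 genes. Of 9 T lymphocyte markers 4 lay above the filter (Cd3d, Cd3e, Cd2, Cd8a and Cd8b did not), with means from -0.19 to 0.14 in obese rats and -0.28 to 0.32 in lean rats. Of 5 natural killer cell markers 4 did, all but Ncr1, with means from -0.28 to 0.15 in obese rats and -0.61 in lean rat 5 to 0.54 in lean rat 1. Lean rat 1 was highest and lean rat 5 lowest in the natural killer list as they were among lean rats in the mean of the 9 genes. Other rats did not match: lean rat 8 had 0.31 in the mean of the 9 genes and -0.37 in the natural killer list. Obese rat 6 had -0.50 and 0.13. Of the 3 B lymphocyte markers on the array only Ms4a1 lay above the filter, with log2 differences of -0.34 with 15 arrays and -0.38 with 13 that did not pass. Its deviation was -0.64 in obese rat 6 to 0.11 in obese rats and -0.04 to 0.32 in lean rats, so that obese rat 6 was lowest in it as in the mean of the 9 genes. For the 4 plasmacytoid dendritic cell markers above the filter, 1 of which (Bst2) is itself interferon-induced, means ran from -0.23 to 0.35 in obese rats and -0.16 to 0.22 in lean rats. The part of these cells in the values of the 9 genes was not tested. Endothelial and mesothelial markers, 4 of each above the filter, had median log2 differences of 0.01 and -0.33 with 13 arrays, with 0 passing. None of the neutrophil markers on the array (S100a8, S100a9 and Camp) lay above the filter.

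The other genes of the pathway were split in sign. Of 71 other interferon pathway genes above the filter, 0 passed in either direction with 15 or 13 arrays (lowest limma adjusted p = 0.133 and 0.0832). At an unadjusted p under 0.05, 5 were lower and 9 higher in obese rats with 15 arrays, and 4 and 8 with 13. Both directions together, these counts were near the shares of all probe sets at that level, 15.6% with 15 arrays and 17.8% with 13. By direction they were not alike. Of all probe sets 8.82% and 10.2% were lower at that level, the larger part, whereas the higher ones were the larger part here. This was not tested. With 13 arrays 35 had a lower and 36 a higher mean in obese rats, and the median log2 difference was 0.00352. Of all probe sets 57.8% had a lower mean with 13 arrays, a share to be set beside the sign counts of the lists. Of the receptors and their kinases 6 of 8 had higher means, with a median log2 difference of 0.23. The smallest p in that list was that of the kinase Jak1, with signals of 20467.4 to 25128.0 around a median of 22665 in obese rats against 16319.9 to 21436.7 around 19013 in lean rats and a log2 difference of 0.29 ± 0.09 (SE, 13 arrays; limma adjusted p = 0.128). Next was the type II receptor chain Ifngr1 at 0.27, while Ifnar1 and Il10rb had -0.15 each. The ligands Ifnb1, Ifng and Ifnk were on the array and lay below the filter, so no difference is given for them.

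Among the other transcription factors, 4 of 6 were higher with 13 arrays, where 57.8% of all probe sets were lower. Irf5, a factor active in macrophages, had 1076.4 to 1664.3 around a median of 1381 in obese rats against 660.9 to 1417.6 around 908.6 in lean rats, a log2 difference of 0.51 ± 0.16 (SE; limma adjusted p = 0.129). Irf8, needed for the making of dendritic cells and macrophages, was tight in obese rats, from 2554.6 to 2710.4, and spread in lean rats from 1360.4 to 4930.3, its highest value being that of lean rat 1, as for Irf7. Its log2 difference was 0.41 ± 0.24 (SE; limma adjusted p = 0.373). Irf9 and Irf3 had -0.14 and -0.11. Lean rat 1 was the highest lean rat for 24 of the 71 pathway genes, more than for any other lean rat, the next being lean rat 8 with 11. The share of all probe sets for which lean rat 1 was highest is not given here. This count therefore cannot be called particular to the pathway genes.

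The other interferon-stimulated effectors split, with 29 lower and 19 higher in obese rats with 13 arrays and a median log2 difference of -0.07. This was near the share of all probe sets that were lower, 57.8%. Ifi44, an interferon-induced protein, had 1019.1 to 1608.5 around a median of 1232 in obese rats against 1437.5 to 2142.6 around 1538 in lean rats. The log2 difference was -0.37 ± 0.12 (SE; limma adjusted p = 0.135). Its relative Ifi44l had -0.31 ± 0.11 (SE; limma adjusted p = 0.169). On the higher side were Ifitm2, a membrane protein that hinders virus entry, with 11200.2 to 18410.8 around 15478 in obese rats against 9421.6 to 14502.6 around 10324 in lean rats, and Psmb10, a subunit of the immunoproteasome. Their log2 differences were 0.51 ± 0.14 and 0.49 ± 0.17 (SE; limma adjusted p = 0.0832 and 0.154). Of the nucleic acid sensors, Zbp1 had -0.26, the adaptor Sting1 0.16 and the kinase Tbk1 0.17, and of the inhibitors Socs3 had -0.15, Ptpn2 0.11 and Pias1 0.06 (limma adjusted p from 0.439 for Tbk1 to 0.801 for Pias1).

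**Figure D4:**
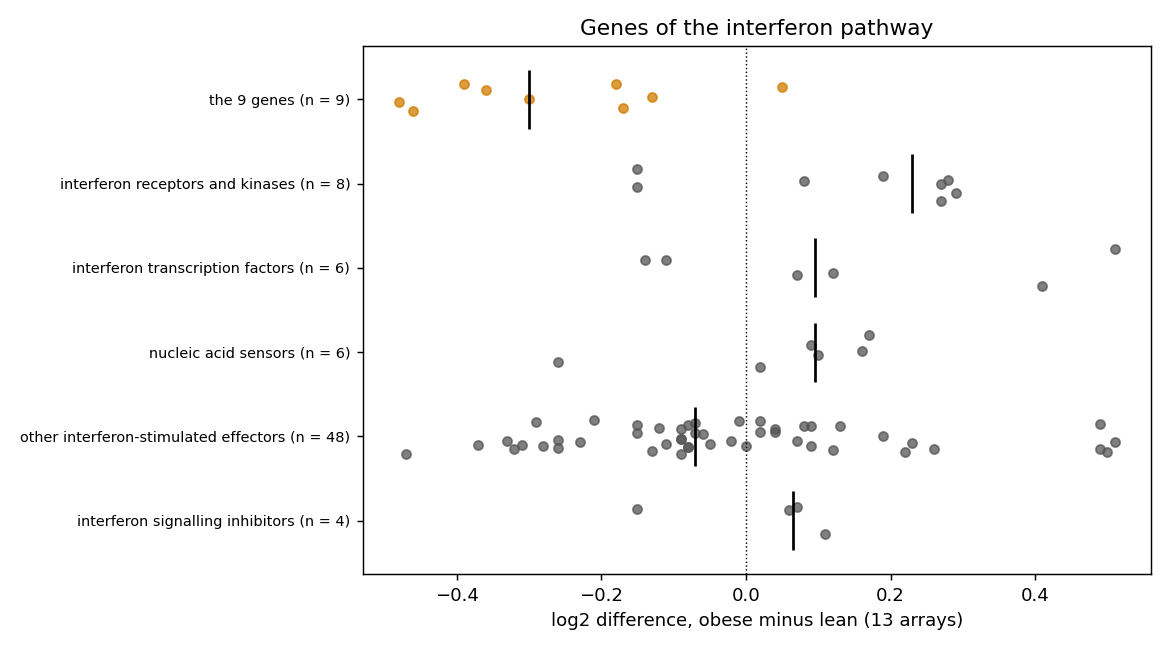
Log2 difference, obese minus lean, over 13 arrays for the 9 genes (top, orange) and for the other interferon pathway genes above the filter by list (grey), with list medians as bars; Ifih1 stands in 2 lists. The 9 genes have a median of -0.30, and the other effectors spread on both sides of 0 around -0.07.

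Over the 13 arrays, the genes differed in how closely each followed the mean of the other 8, described here by Pearson's r with no test. It was 0.90 for Mx1, 0.81 for Isg15, 0.77 for Ifit2, 0.75 for Irf7, 0.73 for Mx2, 0.68 for Ifit3, 0.51 for Irf1, 0.42 for Usp18 and 0.04 for Stat2. Each gene stood by its brightest probe set, so the Stat2 value is that of the brighter one. No r is given for the dimmer Stat2 probe set, which differed from the brighter between the groups. Without lean rat 1 the order was nearly kept, from 0.84 for Mx1 to 0.04 for Stat2, with Usp18 at 0.21. Among all other genes above the filter, the 8 whose log2 values were most like the mean of the 9 were Cmpk2, C9h6orf226, Zkscan5, Micall1, Tmem247, Fat4, Slfn4 and Gpkow, with r from 0.87 for Cmpk2 to 0.81 for Gpkow over 13 arrays and from 0.84 for C9h6orf226 to 0.67 for Gpkow without lean rat 1. Cmpk2, a mitochondrial nucleotide kinase, is the only one of these 8 on the pathway lists used here. It had a median of 929.6 in obese and 1172 in lean rats and a log2 difference of -0.33 ± 0.16 (SE; limma adjusted p = 0.3). Slfn4 was like Irf7 in lean rat 1, at 9621.7 against a lean median of 5196. None of the 8 passed between obese and lean rats with 13 arrays, where 1.01% of all probe sets did. They were picked by their likeness to the 9 genes across rats of both groups. Their differences between the groups are therefore not separate from those of the 9.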

How the data were processed

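Total RNA of epididymal fat was hybridised to 1 array per rat, per the labels. The deposited intensity values are MAS5 signals, per the submitters' processing notes, used as they stand; version and settings are not given in the sources used here. MAS5 subtracts mismatch signal, so dim probe sets are noisy.

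Tests ran on log2(signal + 79.9), the added value being the 10th percentile of all signals; this understates changes of dim genes. Of 31099 probe sets, 57 controls were dropped, and the 18625 with a mean above the 40th percentile of the others were fitted with limma 3.58.1 (lmFit, eBayes; R 4.3.3), Benjamini-Hochberg adjusted over all. The step was also run on simulated data, with errors drawn independently for each probe set and array. No result given here rests on that run. By the platform annotation, 20826 probe sets have 1 gene, 436 several and 9780 none, and 20758 have an Entrez ID that is still in use. Where a gene has several probe sets, the brightest stands for it. Cross-hybridisation between relatives (Mx1 and Mx2, the Ifit genes) was not tested.

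The members, the lists and the 13-array set were chosen with earlier results of these data known. Pathway genes named are those past the threshold, otherwise up to 2 per list and direction with the smallest p over 13 arrays. P-values measure the spread between rats, whose number limits the precision. Deviations of same-numbered rats, which no label pairs, correlated at -0.11 to 0.24 over 7 pairs. Alternatives were pseudocounts (1, 291.2), filters (none, 60th percentile), array scaling (median centring, quantile), a block for rat number, a Gapdh covariate, averaged probe sets, and leaving out each rat.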

Additional observations from a re-analysis of the deposited data

Results flagged for a closer look

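Of 52 groups of values examined (12 probe sets and the mean of the 9 genes, in obese and in lean rats, with 15 and 13 arrays), 4 held a rat far from the others by Dixon's ratio of gap to range; chance flags about 1 in 20 groups, and the 15-array and 13-array groups share rats. Irf7 in lean rat 1 stood at 13.56 on the log2 scale (signal 12002.5), with the next lean rat at 12.39 (5284.0), a gap of 0.60 of the range with 15 and with 13 arrays. The dimmer Mx2 probe set in obese rat 3 stood at 10.63 (signal 1502.9), with the next obese rat at 9.63 (714.1), a gap of 0.64 of the range in both sets; in the brighter Mx2 probe set that rat had 2148.6, at the median of the 15-array obese group.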

How the results depend on the processing

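In 24 alternatives with 15 arrays and 22 with 13, no probe set of the 9 genes that was fitted passed the threshold (the 60th percentile filter left out the dimmer Mx2, and the mean over probe sets gave 1 value a gene); the lowest adjusted p was 0.148 with 15 arrays (without obese rat 1) and 0.111 with 13 (without obese rat 2), both for the dimmer Stat2 probe set. Of 284 values with 15 arrays 15 took the other sign, and of 260 with 13 arrays 9 did. Median centring moved the median of all probe sets by more than 0.1, to 0.06 with 15 arrays and 0.07 with 13, and that of the 9 genes to -0.14 and -0.18, and gave, with 15 arrays, Irf1 0.01, Usp18 0.06 and the dimmer Mx2 0.03, and with 13 the dimmer Mx2 0.07; relative to the median of all probe sets, 8 of the 9 genes stayed lower under it. Quantile normalization gave the dimmer Mx2 0.04 and 0.08. The mean over probe sets gave Stat2 -0.20 and -0.21. With the replicate block, the rat number, which the labels do not tie to any pairing, 0 of the 9 genes passed. The dimmer Mx2 had 0.02 with 13 arrays. The median of the 9 genes was -0.24 with 15 arrays and -0.05 with 13, where Irf7 had -0.05. In this fit a rat whose number no rat of the other group carries adds nothing to the difference. Lean rat 4 thus dropped out with 15 arrays, and lean rats 1 and 4 and obese rat 7 with 13. The -0.05 therefore came from fewer rats, without lean rat 1, and is not a measure of pairing alone. The count of all probe sets past the threshold fell to 3 with 13 arrays. With 15 arrays 1 of 7 obese rats correlated best with the lean rat of its own number. Leaving out each rat in turn gave Stat2 -0.05 to 0.09 with 15 arrays and -0.03 to 0.13 with 13, Usp18 -0.11 to 0.02 with 15, and the dimmer Mx2 -0.24 to 0.08 with 15 and -0.24 to 0.12 with 13; with 15 arrays Mx1 ran from -0.40 to -0.15, the brighter Mx2 from -0.57 to -0.19, Ifit2 from -0.48 to -0.27, Ifit3 from -0.18 to -0.04, Irf1 from -0.12 to -0.05 and Irf7 from -0.34 to -0.06. The median of the 9 genes ran from -0.34 without lean rat 5 to -0.09 without lean rat 1 with 15 arrays, and from -0.42 to -0.14 with 13, for the same rats. Over all probe sets, the count past the threshold with 15 arrays was 0, and 3 with no filter, 49 with the filter at the 60th percentile and 0 to 245 with a rat left out (245 without obese rat 1 and 1 without lean rat 7). With 13 arrays it was 189 (135 higher, 54 lower), and 123 with a pseudocount of 1, 46 with no filter, 334 with the stricter filter, 389 with median centring (357 higher, 32 lower), 124 with quantile normalization, 14 with the Gapdh ratio and 51 to 262 with a rat left out. The causes of these moves were not tested.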

Other observations

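Relatives within the Ifit family differed in sign. Ifit1, singled out after its values were seen, had signals of 1061.4 to 3278.5 around a median of 1776 in obese rats against 836.5 to 2382.0 around 1285 in lean rats, and a log2 difference of 0.47 ± 0.21 with 15 arrays and 0.50 ± 0.19 with 13 (SE; limma adjusted p = 0.29 and 0.174), where Ifit2 had -0.41 and -0.48 and Ifit3 -0.13 and -0.18. The difference between these genes was not tested. Cxcl10, a chemokine induced by interferon and also singled out after its values were seen, lay with the lower genes, at 756.1 to 1255.3 around 940.1 in obese rats against 725.7 to 1812.6 around 1273 in lean rats (log2 difference -0.42 ± 0.17, SE, 15 arrays; limma adjusted p = 0.262). In lean rat 1 the high signals took in Irf7, Irf8, Mx1, Slfn4 and Ifi27l2b, genes named after the values were seen and by no set rule. Ifi27l2b had 27433.3 in that rat against a lean median of 7796 (15 arrays). By contrast Ifit1 in lean rat 1, at 1295.7, was near the lean median.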
